A study of Rattus norvegicus with 12 samples.

Results

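Blood pressure control genes were followed in rat tissue punches that the labels call NTS. They were defined as the array features whose only annotated gene symbol is Agt, Gucy1a1, Bdkrb2, Calcrl, Adra1b or Gch1. The rule found 12 of the 18144 features, which are 2 neighbouring spots for each of the 6 genes. Their Entrez Gene numbers in the annotation are 24179 (Agt), 497757 (Gucy1a1), 25245 (Bdkrb2), 25029 (Calcrl), 24173 (Adra1b) and 29244 (Gch1). Of all features, 10118 carry a single symbol. Animals of the alcoholic group, which the series title calls ethanol treated, were set against paired controls, with 6 animals and 6 arrays in each group and 1 animal of each group in every one of 6 pairs. The strain, age and sex of the animals, the dose and length of the ethanol treatment, and what the reference RNA consists of, do not appear in the sources used here. By their labels, punches from several slices were combined, and the amplified RNA was labelled with Cy5 and set against a reference in Cy3.

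The labels do not spell out NTS. In work on the brainstem the letters usually stand for the nucleus tractus solitarius, the first relay of the baroreceptor reflex, where nerves from the great arteries report the arterial pressure to the brain. Several local signals tune that relay, among them angiotensin peptides, kinins, nitric oxide acting through cyclic GMP, calcitonin gene-related peptide and noradrenaline. The genes studied stand at different places in these routes. Agt encodes the precursor from which angiotensin is cut. Bdkrb2, Calcrl and Adra1b encode G protein-coupled receptors. Gucy1a1 encodes a subunit of the soluble guanylyl cyclase that nitric oxide activates, and Gch1 the first enzyme in the making of tetrahydrobiopterin, a cofactor of tyrosine hydroxylase and of nitric oxide synthase.

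Every level below is a log2 ratio of sample over reference, less the median of its array, averaged over the 2 spots of the gene. A level therefore says how a gene stands to the reference, and levels of different genes are not compared. The direction of the ratio was taken from the dyes and is likely but not stated. With the opposite direction the sign of every level and difference would turn, and the correlations would keep theirs. Base 2 is likewise not stated and was read from the size of the values. Before centring, the array medians lay between 0.35 and 1.85. Exact zeros, 484 to 726 per array, were treated as missing. The labelled tissue could be checked only in part: of 14 marker genes of NTS neurons, Phox2a, Pomc and Sst had features with a single symbol and Th and Dbh had none, and a ratio to an unknown reference does not show whether a gene is expressed. Nothing in a punch tells fewer cells of a type from less RNA per cell. The number of arrays limits the precision throughout.

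None of the 6 genes passed the test for a difference between alcoholic and control animals. With limma, the animal pair as a block and Benjamini-Hochberg adjustment over all 11835 genes or unnamed features tested, 0 of the 6 had an adjusted p under 0.05, where the share of all tested was 0%. All 6 had an adjusted p of 0.999. At an unadjusted p under 0.05 the count was also 0 of 6, against 2.45% of all tested, and the exact sign-flip permutation test over the pairs (two-sided, smallest possible p 0.0312) gave p from 0.25 for Bdkrb2 to 0.438 for Agt. The fitted difference was below 0 for 5 of the genes and above 0 for Agt. The median difference of the 6 was -0.21, against 0.01 over all tested, of which 48.3% were negative. These genes were picked with results of the same arrays known, so that median is a description. The alcoholic and control values overlapped for each gene, and groups that do not overlap were met in 0.0253% of all tested.

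**Figure D1:**
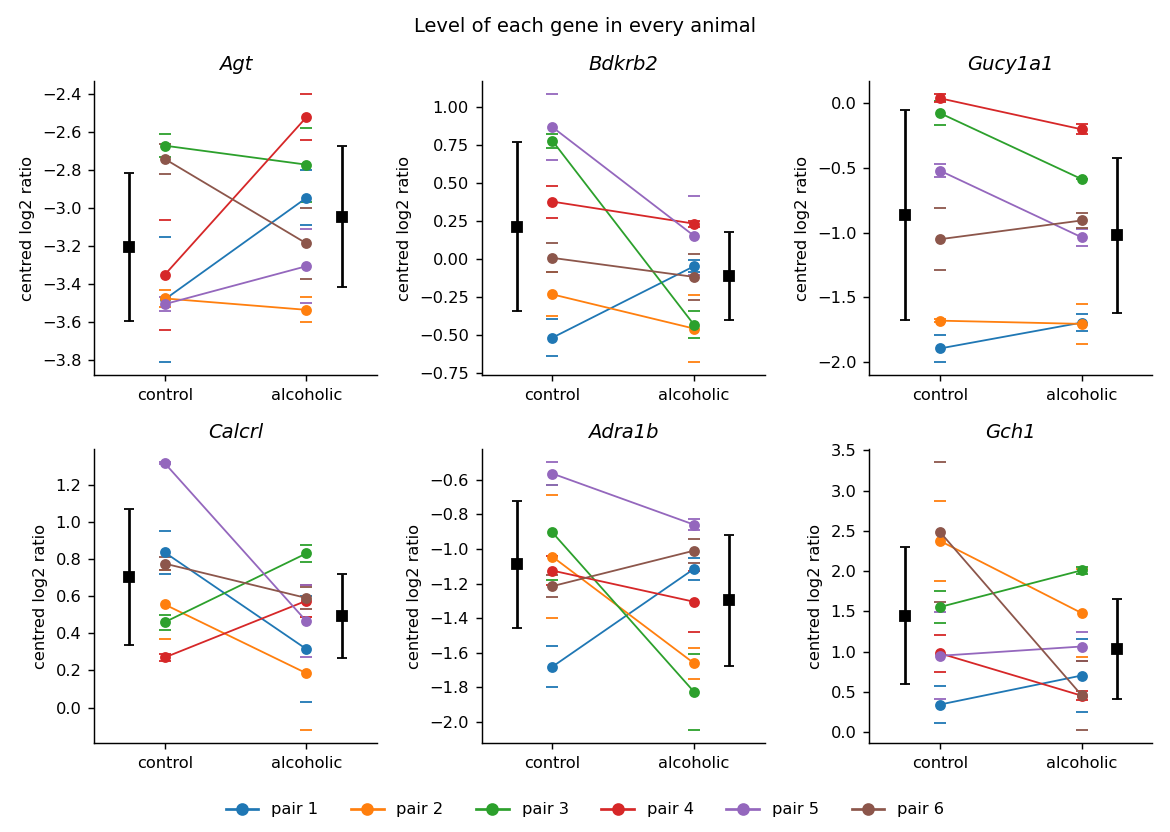
Centred log2 ratio of sample over reference (vertical axes) in the control and alcoholic animals of each pair, for 6 genes. Circles joined by lines are the mean of the 2 spots in 1 animal, dashes the single spots, and black squares with bars the group mean and SD (n = 6). For Gucy1a1 in the alcoholic animal of pair 3 the circle is 1 spot alone. The groups overlap in all panels, and lines run up and down within each panel. No line of Gucy1a1 spans more than 0.52, while its pair means spread from -1.80 to -0.08.

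Agt, whose liver form supplies circulating angiotensin and whose brain form comes largely from astrocytes, stood far below the array median in every animal. In alcoholic animals its level ran from -3.54 to -2.52 with a median of -3.06, and in controls from -3.50 to -2.67 with a median of -3.41. The 2 groups cover nearly the same range, and the controls of pairs 3 and 6 stand apart from the other 4 at the upper end. The group means were -3.04 ± 0.37 (SD, n = 6) and -3.20 ± 0.39 (SD, n = 6). The fitted difference was 0.16 (SE 0.18, 95% interval -0.26 to 0.58), or from 0.84 to 1.49 times the control level. Within pairs the alcoholic animal was higher by 0.83 in pair 4, 0.54 in pair 1 and 0.20 in pair 5, and differed by -0.06, -0.10 and -0.44 in pairs 2, 3 and 6. The sign was thus split evenly, and without pair 4 the difference was 0.03. The 2 spots gave different accounts of the pairs with the wide gaps: in pair 1 one spot differed by 1.01 and its neighbour by 0.06, and in pair 4 they differed by 0.42 and 1.24.

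Bdkrb2 encodes the constitutive bradykinin receptor, through which kinins widen vessels and excite sensory neurons. Its level lay between -0.46 and 0.23 in alcoholic animals, with a median of -0.08, and between -0.52 and 0.86 in controls, with a median of 0.19. The controls of pairs 3 and 5 were the highest of all 12 animals, at 0.78 and 0.86, and the control of pair 1 the lowest. The group means were -0.11 ± 0.29 (SD, n = 6) and 0.21 ± 0.56 (SD, n = 6). The fitted difference was -0.33 (SE 0.21, 95% interval -0.82 to 0.17), with the smallest unadjusted limma p of the 6 genes, 0.166. The alcoholic animal was the lower one in 5 of 6 pairs, and it was lower in at least 5 pairs for 8.2% of all genes with 6 pairs. Pair 3 differed by -1.21 and pair 5 by -0.72, whereas pairs 2, 4 and 6 lay between -0.22 and -0.12 and pair 1 at 0.47. Without pair 3 the difference was -0.15. Single spots gave -0.37 and -0.28, and on the second the alcoholic animal was lower in 4 of 6 pairs. In pair 2 the spots differed by -0.59 and 0.14, and in pair 5 by -0.24 and -1.19.

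Calcrl encodes the receptor that binds calcitonin gene-related peptide or adrenomedullin, depending on which accessory RAMP protein it joins. It was above the array median in each of the 12 animals. Its level was 0.18 to 0.83 in alcoholic animals, with a median of 0.52, and 0.27 to 1.32 in controls, with a median of 0.66. The control of pair 5 was the highest, and the alcoholic animal of pair 2 the lowest. The group means were 0.49 ± 0.23 (SD, n = 6) and 0.70 ± 0.37 (SD, n = 6), and the fitted difference was -0.21 (SE 0.18, 95% interval -0.63 to 0.22). In 4 of 6 pairs the alcoholic animal was lower, with differences of -0.85 in pair 5 and -0.52 in pair 1 at the far end, while pairs 3 and 4 differed by 0.37 and 0.30. The 2 spots agreed in sign in all 6 pairs. Without pair 5 the difference was -0.08. Ramp2, which makes Calcrl an adrenomedullin receptor, had a mean level of 0.66 ± 0.20 (SD, n = 6) in the alcoholic group against 0.73 ± 0.41 (SD, n = 6) in the controls.

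Adra1b encodes an alpha-1 adrenergic receptor that couples noradrenaline to calcium release. In alcoholic animals its level ran from -1.82 to -0.86 with a median of -1.21, and in controls from -1.68 to -0.56 with a median of -1.08. The control range lies slightly higher, with the control of pair 5 at its top and that of pair 1 at its bottom. The group means were -1.30 ± 0.38 (SD, n = 6) and -1.09 ± 0.37 (SD, n = 6), and the fitted difference was -0.21 (SE 0.20, 95% interval -0.67 to 0.26). The alcoholic animal was lower in 4 of 6 pairs, with differences of -0.92 in pair 3 and -0.62 in pair 2, and higher by 0.56 in pair 1 and 0.20 in pair 6. Without pair 3 the difference was -0.06. The 2 spots agreed in sign in all 6 pairs but not in size, since in pair 2 they differed by -1.06 and -0.17.

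Gucy1a1 encodes the alpha-1 subunit of soluble guanylyl cyclase, which works only as a dimer with a beta subunit. Its level ran from -1.71 to -0.20 in alcoholic animals, with a median of -0.97, and from -1.90 to 0.04 in controls, with a median of -0.78. In both groups the animals of pairs 1 and 2 were the lowest, at or below -1.68, and the animals of pairs 3 and 4 the highest. The group means were -1.02 ± 0.60 (SD, n = 6) and -0.86 ± 0.82 (SD, n = 6). The fitted difference was -0.16 (SE 0.14, 95% interval -0.48 to 0.17), and the alcoholic animal was lower in 4 of 6 pairs, with differences of -0.52 in pair 5 and -0.51 in pair 3 at the far end. In pair 3 the alcoholic level is that of the first spot alone, on which that pair differed by -0.415. Without pair 5 the difference was -0.09. In the first spot alone the difference was -0.23; the second spot, with 1 value missing in pair 3, gave 0.01. That value was deposited as an exact zero where its neighbour was -0.14, and with exact zeros kept the second spot gave -0.07.

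Gch1 encodes GTP cyclohydrolase 1, and its level sets how much tetrahydrobiopterin a catecholaminergic neuron can make. It was above the array median in all animals, at 0.46 to 2.01 in alcoholic animals, with a median of 0.88, and at 0.34 to 2.48 in controls, with a median of 1.27. The controls of pairs 6 and 2 were the highest, and that of pair 1 the lowest. The group means were 1.03 ± 0.62 (SD, n = 6) and 1.45 ± 0.85 (SD, n = 6). The fitted difference, -0.42, had the largest standard error of the 6 genes (SE 0.33, 95% interval -1.18 to 0.34), and its interval alone among the 6 reached past a 2-fold change. Pair 6 differed by -2.02 and pair 2 by -0.90, pair 4 by -0.52, and pairs 1, 3 and 5 by 0.36, 0.46 and 0.12. Without pair 6 the difference was -0.10.

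The wide gap of Gch1 in pair 6 came mostly from 1 of its spots. There the control read 3.35 on the first spot and 1.62 on the second, while the alcoholic animal read 0.03 and 0.89, so the spots differed by -3.32 and -0.73 between the animals. In pair 2 they differed by -1.94 and 0.15. In 3 of 6 pairs both Gch1 spots had the same sign, against 3 of 5 for Gucy1a1, 4 of 6 for Agt and 5 of 6 for Bdkrb2. The Gch1 spots of 1 array were on average 0.71 apart. For the other 5 genes that mean gap was between 0.17 for Gucy1a1 and 0.29 for Agt. On the second spot alone Gch1 differed by -0.21 (SE 0.19), against -0.63 (SE 0.56) on the first; neither passed the test, with an adjusted limma p of 0.998 over the 17012 features tested. In that fit too 0 of the 12 spots were called, where the share of all features was 0%.

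**Figure D2:**
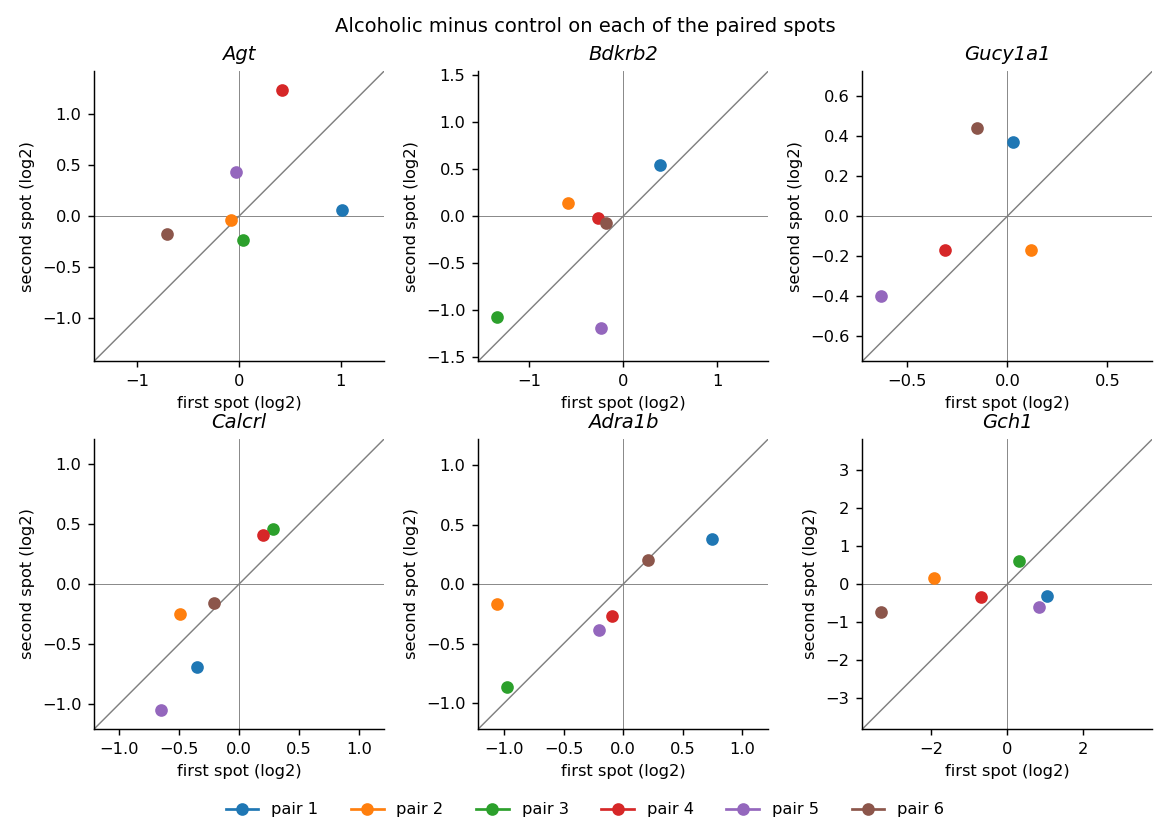
Difference between the alcoholic and control animal of each pair (log2) on the first spot (horizontal axes) and the second spot (vertical axes) of 6 genes; circles are pairs, the diagonal marks equal values, and Gucy1a1 has 5 pairs with both spots. Pair 6 of Gch1 lies at -3.32 on the first and -0.73 on the second spot, far from the diagonal, while the spots of Calcrl and Adra1b agree in sign in all 6 pairs.

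**Figure D3:**
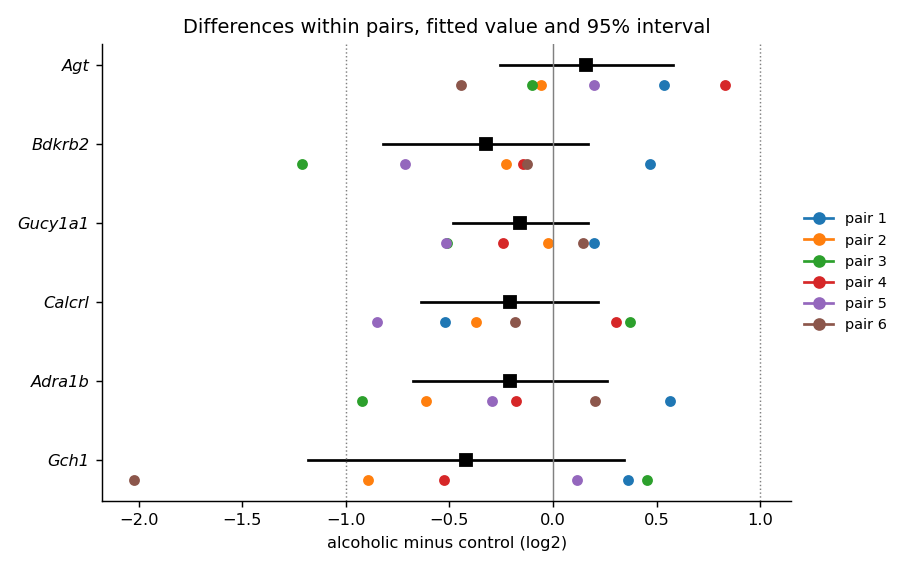
Alcoholic minus control on the log2 scale (horizontal axis) for 6 genes, with the fitted value (square) and its 95% interval (line) above the differences of the single pairs (circles); dotted lines mark a 2-fold change. All 6 intervals include 0, and that of Gch1 reaches -1.18.

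The genes differed in how far the 2 animals of a pair were alike. For Gucy1a1 the pair means spread over 1.72 on the log2 scale, from -1.80 in pair 1 to -0.08 in pair 4, while no pair was more than 0.52 apart. Its levels in the alcoholic and the control animals correlated over the 6 pairs with r = 0.95 (exact permutation p = 0.0167, two-sided; 0.1 after Benjamini-Hochberg adjustment over 6 genes) and a Spearman coefficient of 0.89 (exact permutation p = 0.0333; adjusted 0.2), and with r = 0.78 without the 2 pairs farthest from the median. Over the 11011 genes with 6 pairs the median of r was 0.36, and 1.17% had a larger r than Gucy1a1. The other 5 genes had r from -0.25 for Calcrl to 0.26 for Agt. The standard error of the Gucy1a1 difference was 0.14 with the pair as a block and 0.38 without it. For Adra1b it was 0.20 and 0.21.

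The beta subunit gene Gucy1b1 was named here as the partner of Gucy1a1. Its mean level was 1.07 ± 0.40 (SD, n = 6) in the alcoholic group against 1.06 ± 0.35 (SD, n = 6) in the controls, with a fitted difference of 0.01 (SE 0.19, 95% interval -0.42 to 0.44). Over the 12 arrays Gucy1a1 and Gucy1b1 had r = 0.55 (permutation p = 0.0664; 0.199 after adjustment over 3 partner pairs) and a Spearman coefficient of 0.59 (permutation p = 0.0492; adjusted 0.148), and r = 0.48 without the 2 arrays farthest from the median. The coefficient was 0.87 in the 6 control animals and 0.21 in the 6 alcoholic ones, and that difference was not tested. Calcrl with Ramp2 had r = 0.32 (permutation p = 0.309; adjusted 0.463), with -0.72 within the alcoholic and 0.61 within the control animals, a difference that was not tested, and 0.57 without the 2 farthest arrays. Gch1 with Gchfr, which encodes the feedback regulator of its enzyme, had r = 0.06 (permutation p = 0.833), with 0.57 within the alcoholic and -0.25 within the control animals. None of the 3 passed after adjustment. These permutations treat the 12 arrays as exchangeable, although the animals of a pair were alike in Gucy1a1.

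Among the 15 combinations of the 6 genes, Bdkrb2 and Adra1b varied together most closely over the 12 arrays, of which those of a pair are not fully independent. Their r was 0.80 (permutation p = 0.00102; 0.0153 after adjustment over 15), with 0.77 within the alcoholic and 0.86 within the control animals and 0.70 without the 2 arrays farthest from the median; the Spearman coefficient was 0.67 (permutation p = 0.0213; adjusted 0.16). Bdkrb2 and Gucy1a1 had r = 0.71 (permutation p = 0.00948; adjusted 0.0711) and a Spearman coefficient of 0.79 (permutation p = 0.00318; adjusted 0.0477), with 0.38 within the alcoholic and 0.87 within the control animals. Neither pair of genes passed with both coefficients, and the permutations treat the 12 arrays as exchangeable although the animals of a pair were alike in Gucy1a1. Bdkrb2 and Adra1b also had r of 0.62 and 0.75 with the array median before centring over the same 12 arrays. The part of the array median in their r of 0.80 was not tested. Against 4315 other genes the top percentile of r began at 0.84 for Bdkrb2, above its r with Adra1b and with Gucy1a1. For Adra1b it began at 0.795, slightly below its r of 0.804 with Bdkrb2. The other 13 combinations had adjusted permutation p of at least 0.611 for r. Over the 12 arrays, the sizes of r were at most 0.47 for Agt and at most 0.13 for Gch1 with the other genes. Within the 6 alcoholic animals alone Gch1 had r of -0.76 with Bdkrb2 and -0.75 with Adra1b, and Agt had 0.72 with Gucy1a1, against -0.07, 0.22 and 0.38 within the controls. Those differences were not tested.

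The pair differences of Bdkrb2, Gucy1a1 and Adra1b ran alongside the pair differences of their array medians. The median of the alcoholic array less that of the control array was 0.61, -0.07, -0.92, 0.12, -0.73 and 0.67 in pairs 1 to 6. Over the 6 pairs these values correlated with the centred difference of Gucy1a1 at r = 0.94, of Bdkrb2 at r = 0.91 and of Adra1b at r = 0.84, with exact permutation p of 0.0222, 0.0139 and 0.0306 and an adjusted value of 0.0611 for each. Spearman's coefficient was 0.83, 0.94 and 0.89, with exact permutation p of 0.0583, 0.0167 and 0.0333 and adjusted values of 0.117, 0.1 and 0.1. Without the 2 pairs farthest from the median, r was 0.76, 0.60 and 0.92. Agt, Calcrl and Gch1 had r of 0.08, -0.10 and -0.56. None of the 6 relations passed after adjustment, and they were computed after the values had been seen. Over the 12 arrays the centred level had r with the array median of 0.08 for Gucy1a1, 0.62 for Bdkrb2 and 0.75 for Adra1b. Within the alcoholic arrays that r was -0.66, 0.32 and 0.79, and within the control arrays 0.33, 0.73 and 0.83. The coefficients of the levels were not tested.

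Over 11011 genes the median r between the pair differences and those of the array medians was -0.0001. Since every array was centred on its median, a median r near 0 says little. The quartiles of r were -0.44 and 0.47, with 6.21% of genes over 0.8 and 5.79% under -0.8. The share with an r of larger size, in either direction, was 1.07% for Gucy1a1, 3.06% for Bdkrb2 and 8.40% for Adra1b. With the array median as a covariate beside the pair block, Bdkrb2 differed by -0.28 with a standard error of 0.13 in place of 0.21, Adra1b by -0.17 (SE 0.14) and Gucy1a1 by -0.13 (SE 0.10). The unadjusted limma p of Bdkrb2 was then 0.0621 and its adjusted p 0.999. The control array had the higher median in pairs 3, 5 and 2, where Bdkrb2 differed by -1.21, -0.72 and -0.22. In pairs 1, 4 and 6 the alcoholic array had the higher median, and Bdkrb2 differed by 0.47, -0.145 and -0.125. The part of the array median in the differences was not tested further.

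**Figure D4:**
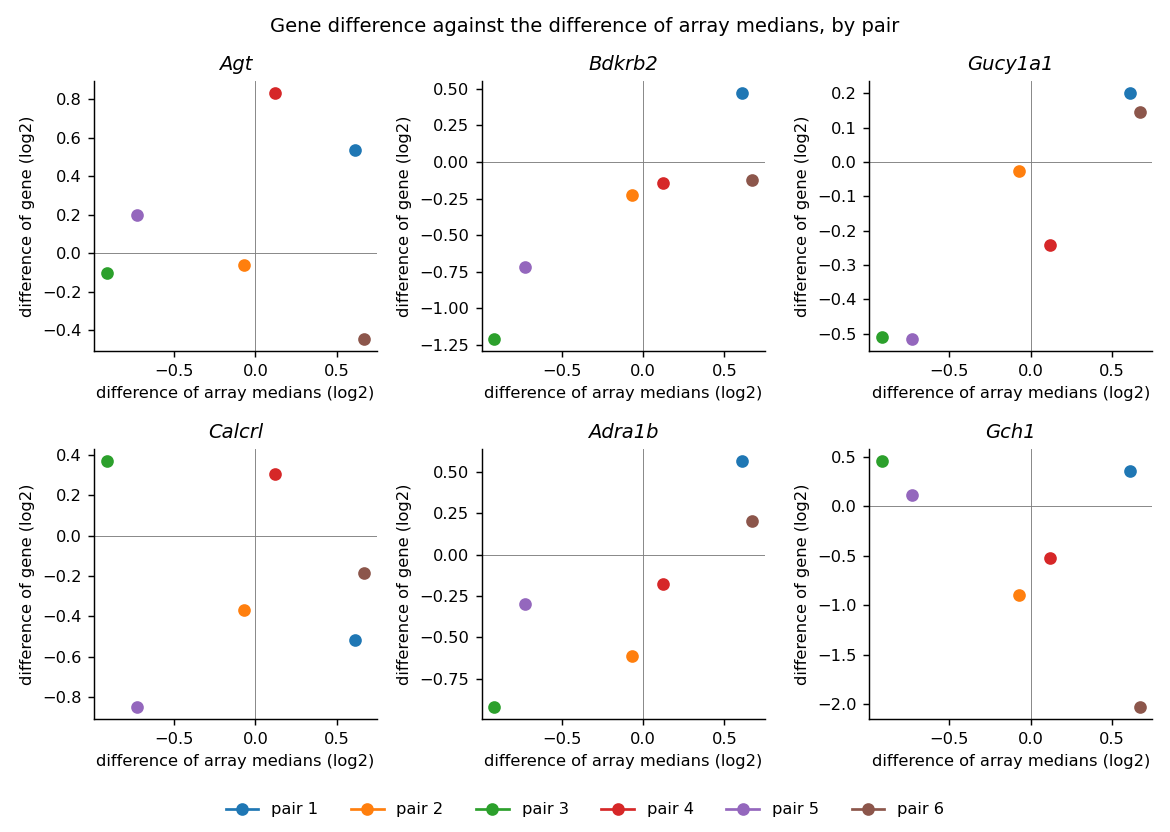
Difference of each gene between the alcoholic and control animal of a pair (vertical axes, log2, centred arrays) against the difference of the 2 array medians before centring (horizontal axes, log2); circles are the 6 pairs. The points of Gucy1a1 (r = 0.94), Bdkrb2 (r = 0.91) and Adra1b (r = 0.84) rise from left to right, and those of Agt and Calcrl have r of 0.08 and -0.10.

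The genes whose level moved most like each of the 6 over the 12 arrays were taken from 4315 other genes with a single symbol and a value on every array. Gucy1a1 was matched by Caprin1 (r = 0.97) and the glutathione peroxidase gene Gpx1 (r = 0.97), and Bdkrb2 by the proteasome subunit gene Psmb4 (r = 0.92) and Antkmt (r = 0.91). For Adra1b they were Sec63 and Ap1s1 (r = 0.89 for each), and for Calcrl Pitx3 and Cnst (r = 0.88 for each). Agt was matched by the gene of the luteinizing hormone receptor, Lhcgr (r = 0.84), and by Usf1 (r = 0.83), and Gch1 by Cxcr3 (r = 0.82) and Ncam1 (r = 0.79). These are the highest of 4315 coefficients each, between values that share arrays, and they are given as a description. The top percentile of r began at 0.91 for Gucy1a1 and at 0.59 for Gch1.

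Of 129 other genes in the pathway lists, 44 were tested, and none was called. The lists showed 24 of these higher and 20 lower in alcoholic animals, with a median of 0.01, the same as over all genes tested. One had an unadjusted limma p under 0.05: Npy, the vasoactive peptide neuropeptide Y, at 0.32 (SE 0.11, adjusted p 0.999), with 5 of 6 pairs higher; that is 1 of 44, against the 2.45% of all tested. Sgk1, a kinase that acts on sodium channels, differed by 0.19 (SE 0.16; 0.11 without pair 1) and Add2, a cytoskeletal adducin, by -0.15 (SE 0.15; -0.04 without pair 6 and -0.25 without pair 5).

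In the angiotensin list 5 of 6 tested genes, Agt among them, were on the positive side, with a list median of 0.13. The peptidase gene Mme, whose enzyme neprilysin cleaves angiotensin and natriuretic peptides, differed by 0.63 (SE 0.47). Its difference in pair 2 alone was 3.41, and without that pair the fitted value was 0.07. The mast cell chymase gene Cma1 differed by 0.30 (SE 0.25), or from 0.14 without pair 1 to 0.50 without pair 6, and Atp6ap2, which encodes an accessory protein of the vacuolar proton pump, by 0.09 (SE 0.13), or 0.02 without pair 2. No feature had Ace or Agtr1a as its single symbol, and the converting enzyme and the main angiotensin receptor are not reported here; features with several symbols or none were not searched for them. Beside Bdkrb2 the kinin list had only Serpina3c, at -0.01.

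The nitric oxide and cyclic GMP list had 3 genes higher and 5 lower, Gucy1a1 included, around a median of -0.02. Arg2, an arginase that competes with nitric oxide synthase for arginine, differed by -0.22 (SE 0.12) and was lower in 5 of 6 pairs. The cyclic GMP phosphodiesterase gene Pde9a differed by -0.12 (SE 0.11; -0.18 without pair 3) and the natriuretic peptide receptor gene Npr2 by 0.09 (SE 0.10; 0.055 without pair 4). Around Calcrl, in a list with a median of -0.07, the amylin gene Iapp differed by 0.20 (SE 0.16; 0.11 without pair 2 and 0.33 without pair 5), Ramp2 by -0.07 (SE 0.15) and Calca, which encodes the ligand calcitonin gene-related peptide, by -0.08 (SE 0.18). Without pair 6 Ramp2 stood at 0.03, and without pair 3 Calca stood at 0.09.

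Adrenergic receptors and their regulators split 4 to 4, Adra1b included, with a median of 0.00. The arrestin gene Arrb2 differed by -0.16 (SE 0.12; -0.10 without pair 3), Maob, an enzyme that breaks down monoamines, by 0.33 (SE 0.39), and Rgs2, which dampens G protein signals, by -0.07 (SE 0.23). Without pair 2 Maob stood at -0.14, and without pair 3 Rgs2 stood at 0.13. In the list of tetrahydrobiopterin and catecholamine synthesis, Gchfr differed by 0.09, Spr, the last enzyme of the cofactor's synthesis, by -0.09 and the vesicular monoamine transporter gene Slc18a2 by 0.07, with standard errors of 0.13, 0.15 and 0.14; without pair 3, Gchfr stood at 0.003, Spr at 0.05 and Slc18a2 at -0.03. Among hormones and their receptors, Oxt differed by 0.41 (SE 0.31; 0.09 without pair 3), the vasopressin receptor gene Avpr1a by -0.17 (SE 0.17; -0.03 without pair 5) and Avp by 0.07 (SE 0.11; -0.003 without pair 5).

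**Figure D5:**
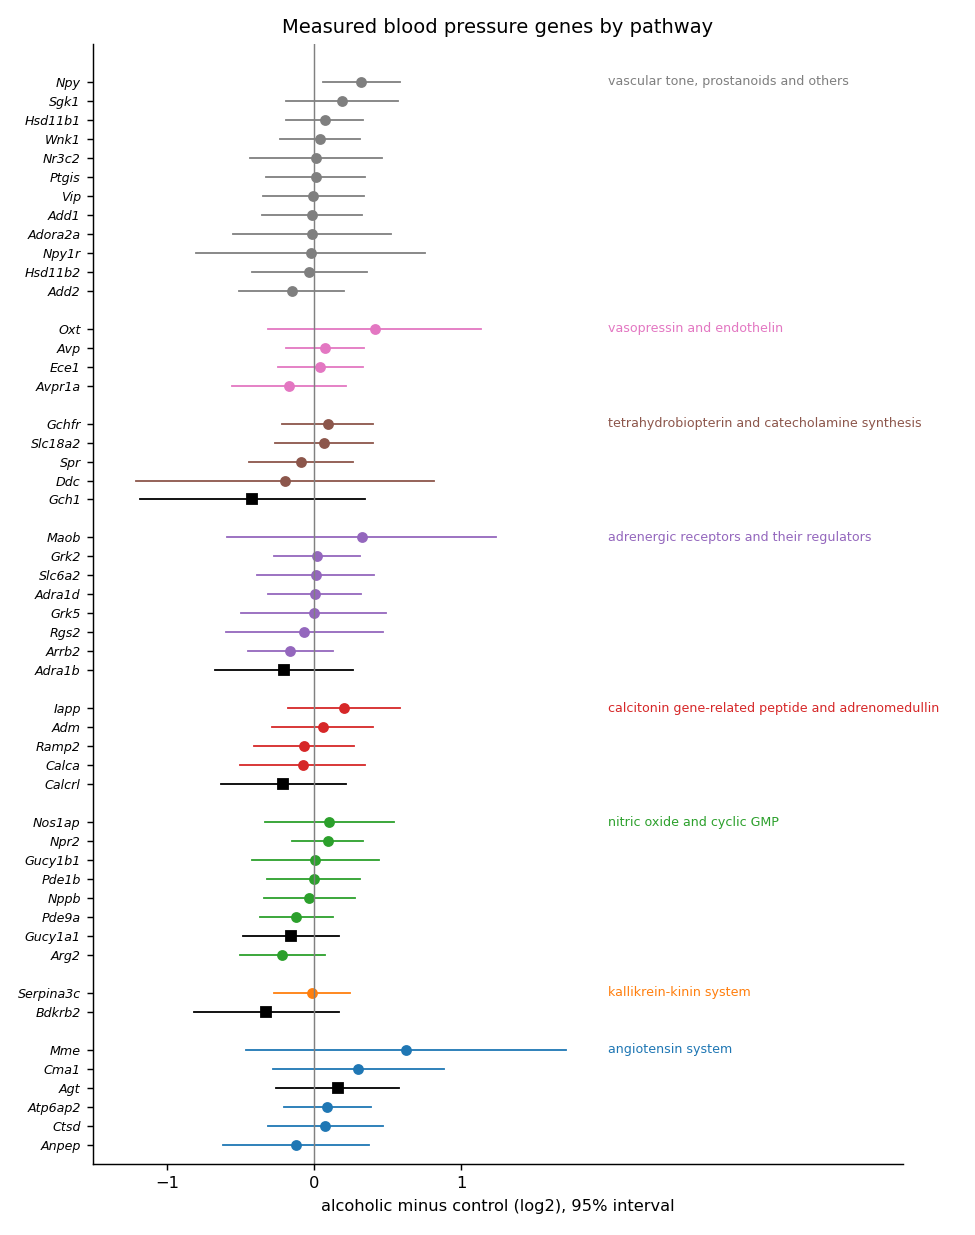
Alcoholic minus control on the log2 scale (horizontal axis) with 95% intervals for every tested gene of the pathway lists, grouped by list; black squares are Agt, Bdkrb2, Calcrl, Adra1b, Gucy1a1 and Gch1. Each interval but that of Npy includes 0, and those of Mme, Maob and Gch1 are among the widest.

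Markers of the cell types that a punch can hold were measured on the same arrays, and none of them was called. Of 10 astrocyte markers tested, 8 were higher in alcoholic animals, with a median of 0.12; Mt3 differed by 0.22 (0.15 without pair 1 and 0.37 without pair 3) and Vim by 0.18 (0.09 without pair 1). Their mean level ran from 0.67 to 1.33 in alcoholic and from 0.56 to 0.91 in control animals. Aldh1l1, with a high mean level (2.54 in alcoholic and 1.95 in control animals), was complete in only 4 pairs. It dropped out of the mean on arrays without a value, so these ranges do not rest on the same genes in every animal. The 13 endothelium and vessel wall markers had 5 higher and a median of -0.03, with Tek at -0.23 (-0.04 without pair 6) and Kdr at -0.16 (-0.05 without pair 5), and a mean level from -0.44 to -0.12 in alcoholic and -0.37 to 0.02 in control animals. Neuron markers split 4 to 4 around a median of -0.003, and all 3 tested markers of NTS neurons were higher, with a median of 0.07. The count of higher genes was 3 of 5 for oligodendrocytes (median 0.04), 5 of 6 for microglia and macrophages (0.03), 4 of 7 for blood cells (0.03) and 4 of 7 for choroid plexus, ependyma and leptomeninges (0.10). Gfap, Cldn5 and Vwf were not among the features with a single symbol. The part of these markers in the values of Agt or of the receptors was not tested.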

How the data were processed

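The authors deposited log2 ratios of 18144 features for 12 arrays with 2 colours; the sources used here do not give how background, filters and normalization were handled. Base 2 was read from the deposited values, whose largest size, 13.92, exceeds what 16-bit signals allow in natural logs (11.1) or log10 (4.82). Those limits hold only if background subtraction left no very small signals, so base 2 is likely but not certain. Names come from a platform annotation that can be old: 10118 features had a single symbol, 1092 had several and 6934 had none. Exact zeros were set to missing, the median of each array was subtracted, and spots under the same single symbol were averaged. Genes complete in at least 4 pairs were tested by lmFit and eBayes of limma 3.58.1 (R 4.3.3; alcoholic minus control, animal pair as a block) and Benjamini-Hochberg adjustment at 0.05; a second fit took every feature on its own. The code was tested on simulated data.

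The pairs come from the labels. Over the 11011 genes with 6 pairs, the paired arrays' departures from the mean of their group had an r between 0.01 (pair 3) and 0.43 (pair 4). The labels state pairs of animals, which are the replicates.

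The genes and lists were chosen with earlier results of these data known. Text names all 6 genes, their 2 most similar genes each and, by smallest p, up to 3 others per pathway list. By the same rule it names 2 astrocyte markers and 2 markers of endothelium and vessel wall. No gene of the other marker lists was picked by p. Partner genes of 3 members were added. Alternatives were no centring, quantile normalization, exact zeros kept, filters on missing values, limma's trend and robust options, no pair block, single spots and each pair left out. The array median as a covariate was added after the values were seen. Sequences and genome positions were not used here.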

Additional observations from a re-analysis of the deposited data

Results flagged for a closer look

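The 6 genes and their spots gave 36 groups of arrays to test for a distant animal. In 2 of them an animal stood far from the rest; chance gives about 1.8. On 1 spot of Calcrl, the alcoholic animal of pair 2 stood at -0.12, where the next was at 0.49 and the highest at 0.79. On 1 spot of Adra1b, the control of pair 5 stood at -0.50, where the next was at -1.18 and the lowest at -1.56. Neither stood out after the 2 spots of the gene were averaged.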

How the results depend on the processing

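The 6 genes and their spots were recomputed 263 times in all, and 0 passed an adjusted p of 0.05 by limma under any alternative. Without centring, 4 genes and 20 features of the whole table were called, none of them among the 6 genes or their spots; that setting moved the median of all genes to -0.05. Without the replicate block 0 genes and 0 features were called, and it changed no call. The sign of the Gucy1a1 difference turned on its second spot alone (0.014). That spot itself turned from 0.014 to -0.174 without the replicate block, -0.0505 with quantile normalization, -0.07 with exact zeros kept and -0.0594 with the array median as a covariate. Without the block, the control of pair 3, at 0.02 and with no partner value on that spot, entered the estimate as well. Leaving out each pair in turn gave that spot -0.0925 to 0.118 and the first Agt spot -0.073 to 0.271. Over the same settings the genes ranged from 0.03 to 0.28 (Agt), -0.23 to -0.09 (Gucy1a1), -0.48 to -0.15 (Bdkrb2), -0.32 to -0.08 (Calcrl), -0.36 to -0.06 (Adra1b) and -0.59 to -0.10 (Gch1). Of the pathway genes named, Serpina3c ranged from -0.081 to 0.019, Ramp2 from -0.151 to 0.029, Calca from -0.195 to 0.086, Maob from -0.14 to 0.48, Rgs2 from -0.23 to 0.13, Spr from -0.146 to 0.052, Slc18a2 from -0.026 to 0.157 and Avp from -0.003 to 0.12. The cause was not tested. Signals over background were not used here.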
